A study of Mus musculus with 6 samples.

Results

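The surface markers of ductal progenitor cells described here are 9 genes, Epcam, Prom1, Cd24a, Cd44, Alcam, Ncam1, Lgr4, Lgr5 and St14, taken by symbol from the 24404 genes of the deposited count table. Their products sit on the membrane of the ductular and progenitor-like cells that appear when the liver is injured, and they are the molecules by which such cells are usually stained or sorted. The rule takes them by symbol and uses no measured values, but they were chosen with earlier results of these data known. All 9 were found in the table and 8 passed the filter on low counts. Lgr5 did not.

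The RNA sequenced was that of biliary epithelial cells, the lining of the intrahepatic bile ducts, in adult C57BL/6 mice. All 6 libraries came from animals given DDC (diethoxycarbonyl-dihydrocollidine, a compound that injures bile ducts and provokes a ductular reaction) for 1 week, so an uninjured state was not part of the comparison. The 3 Klf5 LKO libraries carried the genotype Alfp-CreTg/+;Klf5flox/flox and the 3 control libraries Alfp-Cre+/+;Klf5flox/flox. Both groups thus had the floxed Klf5 alleles, and the Cre transgene, whose Alfp promoter and enhancer are active in the epithelial lineages of the liver, hepatocytes as well as duct cells, was present in the Klf5 LKO group alone. An effect of Cre itself and the loss of Klf5 cannot be told apart. The sources used here do not give how the cells were isolated, and whether an antibody to one of the markers was part of it is not known. Nor do the labels say that each library came from its own animal, in which case p-values rest on a spread among libraries that may be technical.

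These molecules fall into a few working groups. Epcam, an adhesion glycoprotein of simple epithelia, holds claudin partners at the lateral membrane and is cut by matriptase, the membrane-bound protease encoded by St14. Cd44 is the main receptor for hyaluronan, Alcam and Ncam1 are adhesion molecules of the immunoglobulin superfamily, and Cd24a is a small lipid-anchored mucin-like glycoprotein. Prom1 (CD133) is a cholesterol-binding protein of membrane protrusions. Lgr4 and Lgr5 are receptors for R-spondins, which strengthen Wnt signalling by keeping the ubiquitin ligases Znrf3 and Rnf43 away from the Wnt receptors.

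Total reads assigned to genes were 17161087 to 24784167 in the Klf5 LKO libraries and 11726934 to 20066745 in the control libraries. For Klf5, the gene under deletion, normalised counts of 977, 1192 and 1183 in Klf5 LKO stood against 2056, 2018 and 2316 in control. Its log2 fold change was -0.93 (SE 0.14, limma, adjusted p = 0.0103), and the call ended without control 1, 2 or 3 (adjusted p = 0.0625, 0.0681 and 0.0540). Counts were given per gene and not per exon. Whether the reads that remain in Klf5 LKO come from exons outside the deleted part was not tested. The ductal transcripts Spp1, Krt19 and Sox9 were detected in all 6 libraries. Of these, Krt19 was lower in every Klf5 LKO library than in any control library.

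None of the 8 tested markers passed the test across all genes in either direction, with limma, edgeR, DESeq2 or limma-voom. Prom1 and Cd44 had lower counts in every Klf5 LKO library than in any control library, and Alcam had higher ones, by 1.255-fold, 1.33-fold and 1.24-fold on the fitted scale. Epcam, Cd24a, Ncam1, Lgr4 and St14 overlapped between the groups. Normalised counts are reads divided by 1 size factor per library, fold changes are those of log2(normalised count + 1), Klf5 LKO over control, and a call is an adjusted p under 0.05 over the 13490 genes tested. The background is 88 of 13490 genes called by limma, 0.652%, and 345 of 14872 called by DESeq2, 2.32%. At an unadjusted p under 0.05 in limma there were 3 of the 8 markers, where 1467 of all tested genes (10.9%) reached that level. Groups without overlap were likewise seen in 3 of 8 markers (37.5%), against 2104 of all tested genes (15.6%). The markers were chosen with earlier results known, and these shares were not tested against each other. The markers had a median log2 fold change of -0.25, with 6 lower and 2 higher means, and all tested genes a median of -0.01.

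**Figure D1:**
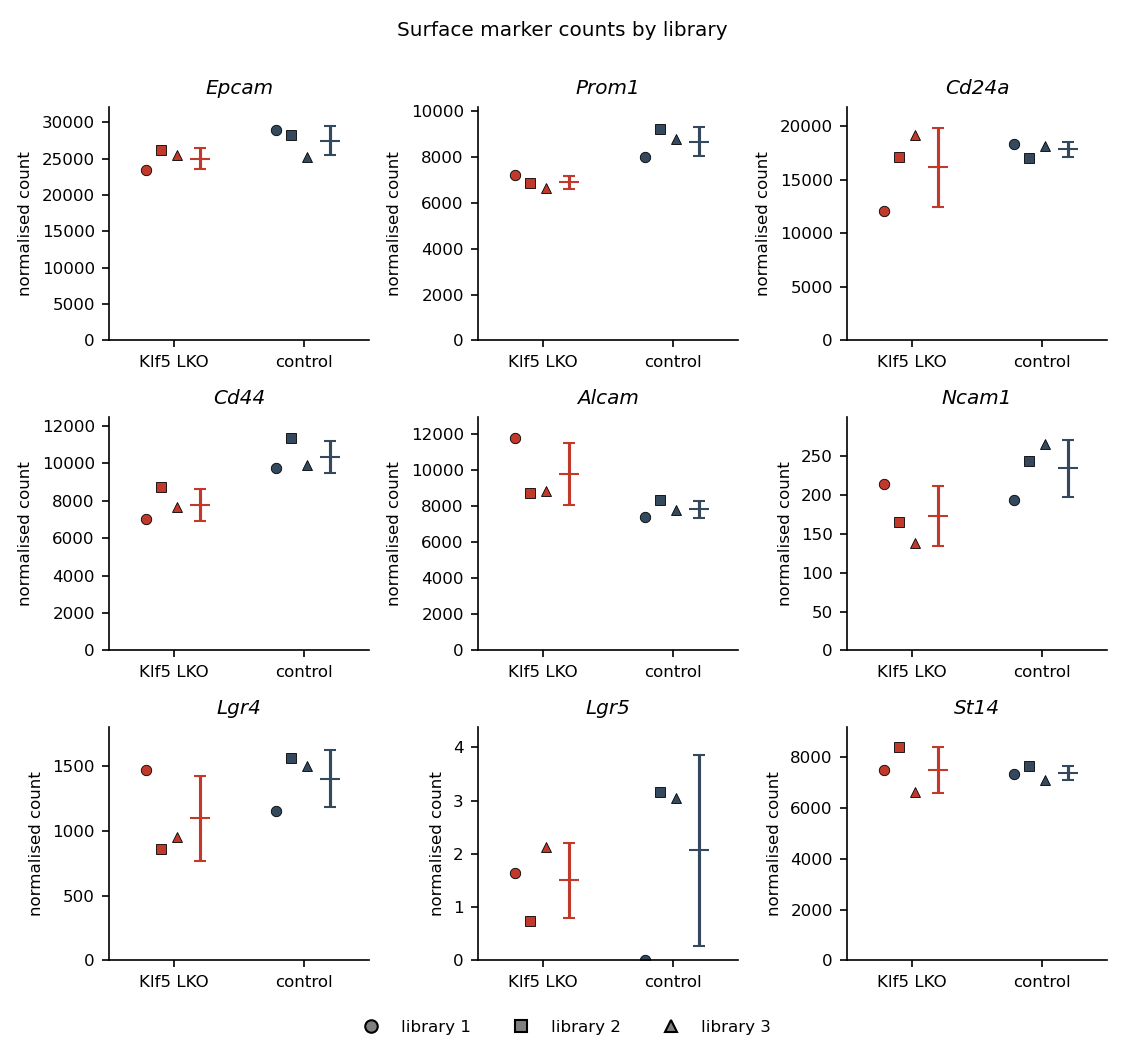
Normalised counts (reads divided by the size factor of the library) of the 9 surface markers, with 1 point per library, Klf5 LKO in red and control in blue, and bars for the mean ± SD (n = 3 each). Prom1 and Cd44 are lower and Alcam is higher in all 3 Klf5 LKO libraries than in any control library, while the other markers overlap. The vertical axes differ between panels and start at 0.

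Cd44 had the smallest p of the markers. The Klf5 LKO libraries had 7006, 8707 and 7662 normalised counts and the control libraries 9745, 11329 and 9921, that is 7792 ± 858 in Klf5 LKO and 10332 ± 868 in control (SD, n = 3 each). The highest Klf5 LKO library lay below the lowest control library. Its log2 fold change was -0.41 (SE 0.13, 95% confidence interval -0.68 to -0.14), with an unadjusted p of 0.00682 and an adjusted p of 0.220 in limma. DESeq2 on the recovered reads came closest to the threshold, with a log2 fold change of -0.41 and an adjusted p of 0.0525. The authors' deposited table of the comparison gives Cd44 a log2 fold change of -0.37 with an adjusted p of 0.0512. For all 8 tested surface markers the deposited fold changes were smaller in size than those of DESeq2 on the recovered reads, at nearly the same p-values. The reason was not tested. Whichever library was left out, the log2 fold change of Cd44 lay between -0.49 and -0.34. In these bulk samples, fewer cells that carry Cd44 and less Cd44 RNA per cell cannot be told apart. Leukocytes also carry Cd44, and the summed counts of 9 leukocyte markers ranged from 401 to 2052 in Klf5 LKO and from 609 to 3578 in control. All 8 of those leukocyte markers that could be tested had lower means in Klf5 LKO (median log2 fold change -1.40), with 0 called by limma, edgeR, limma-voom or DESeq2 and 0 at an unadjusted p under 0.05 in limma. A leukocyte score, the mean log2(normalised count + 1) of the 9 leukocyte markers in each library, was also used as a term in the fit. With it, Cd44 had a log2 fold change of -0.45 and an adjusted p of 0.196.

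Prom1 had the lowest coefficient of variation within Klf5 LKO of the markers, 4.09%. Normalised counts were 7194, 6852 and 6634 in the Klf5 LKO libraries, against 7982, 9208 and 8803 in the control libraries, with means of 6893 ± 282 in Klf5 LKO and 8664 ± 624 in control (SD, n = 3 each). The groups were separated by the gap between Klf5 LKO 1 and control 1. For Prom1 the log2 fold change was -0.33 (SE 0.11, 95% confidence interval -0.58 to -0.08), with an unadjusted p of 0.0139 and an adjusted p of 0.289 in limma. DESeq2 gave the same size of change and an adjusted p of 0.104, close to the 0.101 in the authors' deposited table. Leaving out single libraries moved the log2 fold change of Prom1 between -0.39 and -0.28. The gene shares 424 bases of exon with an antisense transcript that the table does not list, and the sources used here do not give the strand setting of the counting.

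Alcam went the other way. The Klf5 LKO libraries had 11790, 8745 and 8839 normalised counts and the control libraries 7407, 8356 and 7793, with means of 9792 ± 1732 in Klf5 LKO and 7852 ± 477 in control (SD, n = 3 each). Klf5 LKO 1 stood well above the other libraries of its group, and those came close to control 2. For Alcam the log2 fold change was 0.31 (SE 0.14, 95% confidence interval 0.01 to 0.61), with an unadjusted p of 0.0462 and an adjusted p of 0.447. Without Klf5 LKO 1 it dropped to 0.16 (adjusted p = 0.700). The authors' deposited table gives Alcam a log2 fold change of 0.29 and an adjusted p of 0.311.

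The count of Alcam relative to that of Cd44 in the same library does not depend on the scaling between libraries. This ratio, chosen after the values were seen, was 1.68, 1.00 and 1.15 in the Klf5 LKO libraries, against 0.760, 0.738 and 0.786 in the control libraries. All 3 Klf5 LKO libraries held at least as many Alcam as Cd44 reads, and all 3 control libraries held fewer. The mean difference was 0.72 on the log2 scale. Since Alcam and Cd44 were picked for their separation in opposite directions, that of the ratio follows from the choice and was not tested.

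**Figure D2:**
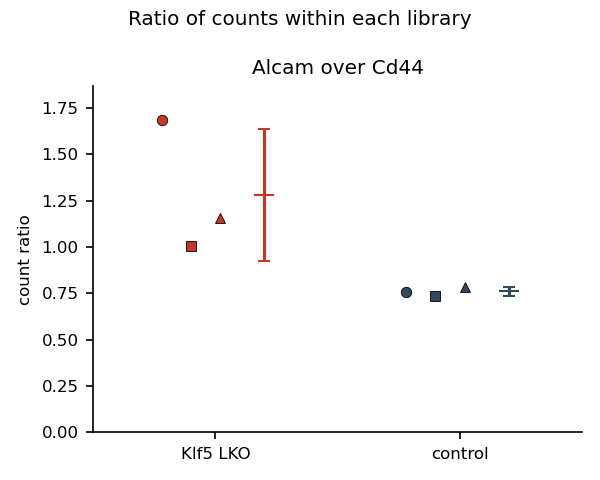
Ratio of Alcam to Cd44 normalised counts within each library, with 1 point per library (circle, square and triangle for libraries 1, 2 and 3) and bars for the mean ± SD (n = 3 each), Klf5 LKO in red and control in blue. The ratio is 1.00 to 1.68 in Klf5 LKO and 0.738 to 0.786 in control.

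The promoter windows of these 3 genes are shown because their groups did not overlap and because Klf5 is a zinc-finger factor of the Krüppel-like family, whose members bind GC-rich and CACCC-type elements. RefSeq (GRCm38.p6) held a window from 250 bases before to 50 after a transcription start for 5 of the 9 markers, Epcam, Prom1, Cd44, Alcam and Lgr4, with 2 windows for Prom1. Capitals mark matches to CCNCNCCC on either strand, overlapping matches included.
Cd44 (chr2:102901616-102901915, minus strand): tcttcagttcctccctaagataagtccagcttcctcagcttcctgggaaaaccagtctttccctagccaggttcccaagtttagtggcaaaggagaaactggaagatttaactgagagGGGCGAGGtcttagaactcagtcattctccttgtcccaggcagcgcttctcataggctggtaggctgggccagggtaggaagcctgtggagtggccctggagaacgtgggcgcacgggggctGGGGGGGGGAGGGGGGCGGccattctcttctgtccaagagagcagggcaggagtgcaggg
Prom1 (chr5:44101687-44101986, minus strand): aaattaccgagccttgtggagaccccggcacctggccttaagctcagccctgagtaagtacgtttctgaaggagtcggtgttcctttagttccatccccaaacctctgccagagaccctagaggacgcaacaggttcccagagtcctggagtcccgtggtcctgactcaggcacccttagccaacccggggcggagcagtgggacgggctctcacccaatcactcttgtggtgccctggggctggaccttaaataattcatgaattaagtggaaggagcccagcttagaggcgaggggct
Alcam (chr16:52453032-52453331, minus strand): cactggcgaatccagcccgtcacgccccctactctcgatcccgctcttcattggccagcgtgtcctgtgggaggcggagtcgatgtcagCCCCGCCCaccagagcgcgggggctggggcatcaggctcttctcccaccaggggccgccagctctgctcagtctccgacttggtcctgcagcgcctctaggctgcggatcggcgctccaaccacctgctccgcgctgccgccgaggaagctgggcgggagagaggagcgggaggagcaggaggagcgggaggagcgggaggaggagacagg
The Cd44 window held 6 matches, 5 of them overlapping in 1 run across the start site, the Alcam window held 1 and the Prom1 window shown held 0. Epcam, whose counts overlapped between the groups, had 2, and the Lgr4 window and the second Prom1 window had 0. Of 32851 mouse promoter windows of this length, 49.5% held at least 1 match, so the 3 of 6 marker windows stand at the general share. The shorter CACCC, on either strand, was in the Epcam window and both Prom1 windows, and in 57.5% of all windows. A match is a stretch of letters and not a measured binding site.

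Epcam had the highest level per gene length of the markers. The Klf5 LKO libraries had 23402, 26173 and 25476 normalised counts and the control libraries 28906, 28330 and 25301, with means of 25017 ± 1441 in Klf5 LKO and 27512 ± 1936 in control (SD, n = 3 each). Control 3 lay below 2 of the 3 Klf5 LKO libraries. Its log2 fold change was -0.14 (SE 0.12, adjusted p = 0.750), with a 95% confidence interval of -0.41 to 0.13.

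St14, which encodes matriptase, had 7470, 8404 and 6606 normalised counts in Klf5 LKO and 7339, 7629 and 7086 in control. The Klf5 LKO libraries spanned the whole control range. Its log2 fold change of 0.02 (SE 0.12, adjusted p = 0.970, 95% confidence interval -0.25 to 0.29) was the nearest to 0 of the 8 tested markers, and it turned to -0.06 without Klf5 LKO 2 and to -0.0049 without control 3.

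In a list of 18 Epcam partners, relatives and members of the matriptase system, 17 were tested. Of these, 2 fell, 0 rose and 15 fell short of the threshold (median log2 fold change -0.02). Among those that fell was the tetraspanin Tspan8, with 7174, 5568 and 6213 normalised counts in Klf5 LKO, against 10598, 11060 and 9583 in control. Its groups lay apart, and it fell by 0.73 on the log2 scale (SE 0.13, adjusted p = 0.0265). That call was lost without any 1 library but Klf5 LKO 1, with an adjusted p of up to 0.162 without control 2, and with the leukocyte term (adjusted p = 0.0594), where the log2 fold change was -0.63. Without single libraries it lay between -0.82 and -0.64.

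Among the members that did not pass, Cldn7, the claudin that Epcam binds, had 6685 ± 1138 normalised counts in Klf5 LKO and 7478 ± 183 in control (adjusted p = 0.699). The matriptase inhibitor Spint1 had 5373 ± 354 in Klf5 LKO and 5435 ± 256 in control (adjusted p = 0.974), and its relative Spint2 had 10544 ± 2083 in Klf5 LKO and 13508 ± 1248 in control (adjusted p = 0.398). Prss8, a protease that works with matriptase, had 1626 ± 26.9 in Klf5 LKO and 1428 ± 164 in control (adjusted p = 0.656; SD, n = 3 each). These 4 were named after their values were seen.

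Cd24a varied more within Klf5 LKO than between the groups. Normalised counts were 12085, 17142 and 19164 in the Klf5 LKO libraries, against 18351, 17052 and 18150 in the control libraries. Klf5 LKO 1 was the lowest of all 6 libraries and Klf5 LKO 3 the highest, and the coefficient of variation was 22.6% in Klf5 LKO and 3.92% in control. Its log2 fold change of -0.17 (SE 0.16, adjusted p = 0.762, 95% confidence interval -0.52 to 0.18) turned to 0.02 (adjusted p = 0.981) without Klf5 LKO 1. Cd24a has 2 processed pseudogenes in the annotation, with 92.3% and 96.8% identity over 259 and 218 of its 1816 transcript bases, so a small part of its reads may have been placed elsewhere.

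Klf5 LKO 1 also stood apart in other markers. Within Klf5 LKO it had the highest counts of Alcam, Lgr4, Ncam1 and Prom1 and the lowest of Epcam, Cd24a and Cd44. The same library had the highest leukocyte marker sum of its group, 2052 normalised counts against 503 and 401 in Klf5 LKO 2 and 3. With the leukocyte score as a term in the fit, 0 of the 8 markers were called (adjusted p of 0.196 to 0.969) and all 8 kept their direction. In that fit Cd24a moved to -0.28 and Alcam to 0.38, Lgr4 moved to -0.31, and Epcam, Prom1, Ncam1 and St14 had log2 fold changes of -0.12, -0.34, -0.45 and 0.02.

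Lgr4 had 1470, 860 and 955 normalised counts in the Klf5 LKO libraries, against 1149, 1560 and 1497 in the control libraries, with means of 1095 ± 328 in Klf5 LKO and 1402 ± 221 in control (SD, n = 3 each). Klf5 LKO 1 lay among the control libraries and the other Klf5 LKO libraries lay below them. For Lgr4 the log2 fold change was -0.38 (SE 0.20, adjusted p = 0.547, 95% confidence interval -0.83 to 0.06). It moved to -0.62 (adjusted p = 0.162) without Klf5 LKO 1 and to -0.23 (adjusted p = 0.694) without Klf5 LKO 2.

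Lgr5 was at the limit of detection. The libraries of the Klf5 LKO group had 2, 1 and 2 reads of it and those of the control group 0, 2 and 3, so no library exceeded 3 reads, the most that a count of 0 allows. There were 5 reads among 63756052 in Klf5 LKO and 5 among 49458889 in control. Taken over the summed size factors of each group, they allow a rate ratio, Klf5 LKO over control, between 0.178 and 3.36 (exact 95% interval, counting error only). A difference in Lgr5 was not detectable at this depth.

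Of 26 genes for R-spondins, their receptors and Wnt receptor turnover, 17 were tested and 0 were called by limma, edgeR, limma-voom or DESeq2 (median log2 fold change 0.02). At an unadjusted p under 0.05 in limma there were 3, Znrf3, Fzd5 and Tnfrsf19, and all 3 had higher means in Klf5 LKO. Znrf3 and Fzd5, with the smallest p in this list, were higher in Klf5 LKO without overlap, and Fzd2 and Ascl2 were lower without overlap, none of the 4 past the threshold. The ubiquitin ligase Znrf3 had 758, 459 and 595 normalised counts in Klf5 LKO and 398, 431 and 382 in control (log2 fold change 0.55, SE 0.21, adjusted p = 0.349). The Wnt receptor Fzd5 had 526, 499 and 550 in Klf5 LKO, against 366, 390 and 420 in control (log2 fold change 0.42, SE 0.18, adjusted p = 0.414). Tnfrsf19, a receptor of the TNF receptor family, overlapped between the groups (log2 fold change 0.43, adjusted p = 0.414). The Wnt receptor Fzd2 had 30.4, 25.3 and 22.4 normalised counts in Klf5 LKO and 34.0, 52.2 and 56.9 in control (log2 fold change -0.83, adjusted p = 0.623). The ligands themselves were at or near 0 in these cells. Rspo1, Rspo2 and Rspo4 had 0 reads in all 6 libraries, and Rspo3 had 0 reads in each Klf5 LKO library and 0, 4 and 1 in control. Lgr6, the third receptor of the family, had 0, 22 and 0 reads in Klf5 LKO and 24, 2 and 0 in control. Of the Wnt target genes in this list, Ascl2, Nkd1, Lef1, Axin2 and Sp5 were low, with means on either side of control. Others had higher counts, such as Znrf3 above. Rnf43 had means of 186 in Klf5 LKO and 162 in control (adjusted p = 0.865 in limma). Tcf7 had means of 240 in Klf5 LKO and 296 in control (adjusted p = 0.675 in limma). Ascl2, which passed the filter, had 0, 9.69 and 3.19 normalised counts in Klf5 LKO and 19.3, 20.5 and 11.2 in control (log2 fold change -2.30, adjusted p = 0.530). Nkd1 overlapped between the groups, with means of 8.38 in Klf5 LKO and 14.8 in control (adjusted p = 0.916). Below the filter, Lef1 had 0 reads in each Klf5 LKO library and a mean of 2.67 normalised counts in control. Axin2 had 4, 4 and 9 reads in Klf5 LKO and 2, 1 and 6 in control, also below the filter. Sp5 had 26, 18 and 4 reads in Klf5 LKO and 0 in each control library. Tnfrsf19, Fzd2, Rnf43, Tcf7 and these low genes were named after their values were seen.

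Ncam1, whose product marks reactive ductular cells and also nerve and natural killer cells, had the lowest level per gene length of the tested markers. Klf5 LKO libraries had 214, 165 and 138 normalised counts of it and control libraries 193, 243 and 265, with means of 173 ± 38.6 in Klf5 LKO and 234 ± 37.0 in control (SD, n = 3 each). Klf5 LKO 1 lay above control 1, and the other libraries were separated by group. Its log2 fold change was -0.45 (SE 0.27, adjusted p = 0.605, 95% confidence interval -1.04 to 0.15), the lowest of the 8 and the one with the largest SE. It moved to -0.62 (adjusted p = 0.489) without Klf5 LKO 1 and to -0.30 (adjusted p = 0.766) without Klf5 LKO 3. Among markers of other Ncam1-bearing cells, the natural killer genes Klrb1c and Ncr1 and the Schwann cell factor Sox10 had 0 reads in all 6 libraries. The summed counts of lymphocyte and natural killer markers were 0 to 13.8 in Klf5 LKO and 2.03 to 61.6 in control. Those of nerve and Schwann cell markers, led by Mbp, were 1941 to 3036 in Klf5 LKO and 2736 to 3384 in control. Within that list S100b, a calcium-binding protein of glia and other cells, had 112, 163 and 180 normalised counts in Klf5 LKO and 320, 329 and 348 in control. S100b, named after its values were seen, did not overlap between the groups (log2 fold change -1.16, SE 0.26, adjusted p = 0.0816 in limma) and was called by DESeq2. The part of these cells in the Ncam1 values was not tested. An antisense gene shares 417 exon bases with Ncam1 and had at most 2 reads in any library.

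**Figure D3:**
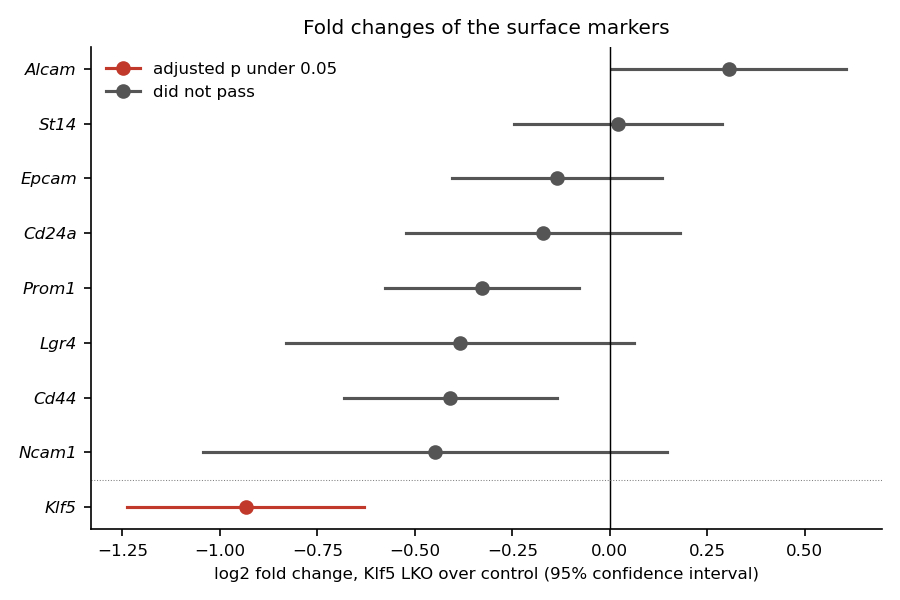
Log2 fold changes (Klf5 LKO over control) of the 8 tested surface markers, and of Klf5 below the dotted line, with 95% confidence intervals as bars. Klf5 passed the test and none of the 8 markers did, while the intervals of Alcam, Prom1 and Cd44, not adjusted for the number of genes, lie to 1 side of 0.

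**Figure D4:**
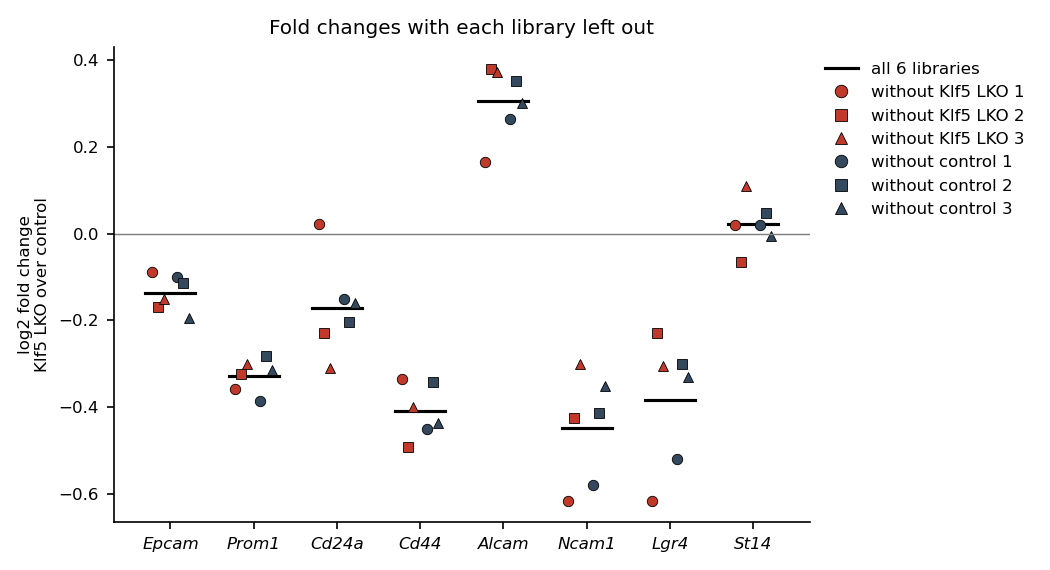
Log2 fold changes (Klf5 LKO over control) of the 8 tested surface markers with each library left out in turn, and with all 6 libraries as black bars. Prom1 and Cd44 stay between -0.49 and -0.28, Alcam drops to 0.16 and Cd24a turns to 0.02 without Klf5 LKO 1, and Lgr4 and Ncam1 both move to -0.62 without it.

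No listed partner of Cd44, Ncam1 or Alcam passed the test. In a list of 16 genes for hyaluronan synthesis and breakdown and for ligands and partners of Cd44, 13 were tested, and 0 were called by limma, edgeR, limma-voom or DESeq2, with 0 at an unadjusted p under 0.05 in limma (median log2 fold change -0.04). The genes with the smallest p were Mmp14, a membrane protease that cuts Cd44, with 5911 ± 275 normalised counts in Klf5 LKO and 5030 ± 498 in control (adjusted p = 0.517), and Ezr, which ties Cd44 to actin, with 11173 ± 2955 in Klf5 LKO and 13641 ± 1340 in control (adjusted p = 0.552; SD, n = 3 each). Of the hyaluronan enzymes, Has2 had 0 reads in all 6 libraries and Cemip had 2 reads in control 2 and 0 elsewhere. The other hyaluronan synthases were low. Has1 had 20, 34 and 4 reads in Klf5 LKO and 7, 1 and 12 in control. Has3 had 0, 20 and 0 reads in Klf5 LKO and 4, 2 and 12 in control. Hyal2, Tmem2 and Hyal1 had higher counts. Hyal2 had means of 1458 in Klf5 LKO and 1501 in control, and Tmem2 had 1464 in Klf5 LKO and 1776 in control. Hyal1 was lower in Klf5 LKO without overlap, with means of 158 in Klf5 LKO and 218 in control (adjusted p = 0.567 in limma). These enzymes were named after their values were seen. Spp1 (osteopontin), a secreted ligand of Cd44 that is very abundant in duct cells, had means of 327975 in Klf5 LKO and 386862 in control (adjusted p = 0.754).

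In a list of 15 partners and modifiers of Ncam1 and Alcam, 6 were tested, and 0 were called by limma, edgeR, limma-voom or DESeq2 (median log2 fold change 0.16). Bcam, Mcam and Prnp were the 3 with an unadjusted p under 0.05 in limma. Bcam, an adhesion molecule of the same superfamily that binds laminin, had 3682, 6924 and 4794 normalised counts in Klf5 LKO and 7520, 7768 and 7030 in control. Its groups did not overlap, Klf5 LKO 2 lying just below control 3, and its log2 fold change was -0.58 (SE 0.19, adjusted p = 0.261). Prnp, the prion protein, which associates with Ncam1, had 4116 ± 546 in Klf5 LKO and 3135 ± 110 in control (log2 fold change 0.39, adjusted p = 0.266; SD, n = 3 each). Mcam, named after its values were seen, is an adhesion molecule best known in vessels, and its groups overlapped (log2 fold change 0.64, adjusted p = 0.266). The enzymes that add polysialic acid to Ncam1 were at or near 0, with 1, 0 and 21 reads of St8sia2 in Klf5 LKO and 20, 0 and 0 in control, and 1, 0 and 0 reads of St8sia4 in Klf5 LKO and 6, 6 and 0 in control.

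Other markers of ducts and progenitors moved in both directions. Of 24 such genes, 21 were tested, and 2 fell, 1 rose and 18 fell short of the threshold (median log2 fold change -0.07). Tspan8 was among those that fell, and Sctr, the secretin receptor of mature duct cells, rose to 1205 ± 36.6 normalised counts, against 701 ± 16.5 in control (log2 fold change 0.78, adjusted p = 0.0275). DESeq2 called 6 of the list, among them the ductal keratins Krt7 and Krt19 and the chloride channel Cftr, which limma did not call. Krt7 was lower, with means of 6391 in Klf5 LKO and 9778 in control (log2 fold change -0.63, adjusted p = 0.0720 in limma). Krt19 was also lower, at 8345 in Klf5 LKO and 13695 in control (-0.74, adjusted p = 0.0988). Cftr was higher, at 2928 in Klf5 LKO and 1955 in control (0.58, adjusted p = 0.0935). Krt7, Krt19 and Cftr did not overlap between the groups. The limma call of Sctr was lost without any 1 library but Klf5 LKO 1, with an adjusted p of up to 0.155 without control 2, and with the leukocyte term (adjusted p = 0.0605), where the log2 fold change was 0.77. Without single libraries it lay between 0.76 and 0.80. The progenitor markers Dlk1 and Thy1 had 0 reads in all 6 libraries. Prom2, a relative of Prom1, had 0, 61 and 41 reads in Klf5 LKO and 17, 14 and 23 in control.

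Levels can be compared between the markers once counts are divided by gene length. On the TPM scale, computed from the recovered reads and the merged exons of GENCODE M21, the order of the markers by their mean over the 6 libraries was Epcam, Cd24a, Cd44, Alcam, Prom1, St14, Lgr4, Ncam1 and Lgr5. Epcam had a level of 2220 ± 84.6 TPM in Klf5 LKO and 2410 ± 86.0 in control, and ranked between 21 and 30 of 23309 genes in the 6 libraries. Cd24a followed with 1213 ± 241 TPM in Klf5 LKO and 1333 ± 73.0 in control (SD, n = 3 each). Every library had more Epcam than Cd24a.

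Cd44 had a level of 224 ± 22.1 TPM in Klf5 LKO and 294 ± 26.8 in control, and Alcam 269 ± 55.9 in Klf5 LKO and 212.5 ± 17.1 in control. Prom1 had 187 ± 13.5 TPM in Klf5 LKO and 233 ± 22.9 TPM in control, and St14 had 191 ± 25.2 TPM in Klf5 LKO and 185 ± 6.63 TPM in control (SD, n = 3 each). These 4 overlapped one another and their order is not fixed, since with the length of the longest transcript the means of the 6 libraries were 231 for Cd44, 210 for Alcam, 273 for Prom1 and 300.1 for St14. Lgr4, at 36.5 ± 12.1 in Klf5 LKO and 46.0 ± 8.47 in control, was below all 4 in every library. Ncam1 was lower again, at 3.90 ± 0.996 in Klf5 LKO and 5.22 ± 1.01 in control, and Lgr5 did not exceed 0.0596 TPM in any library.

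**Figure D5:**
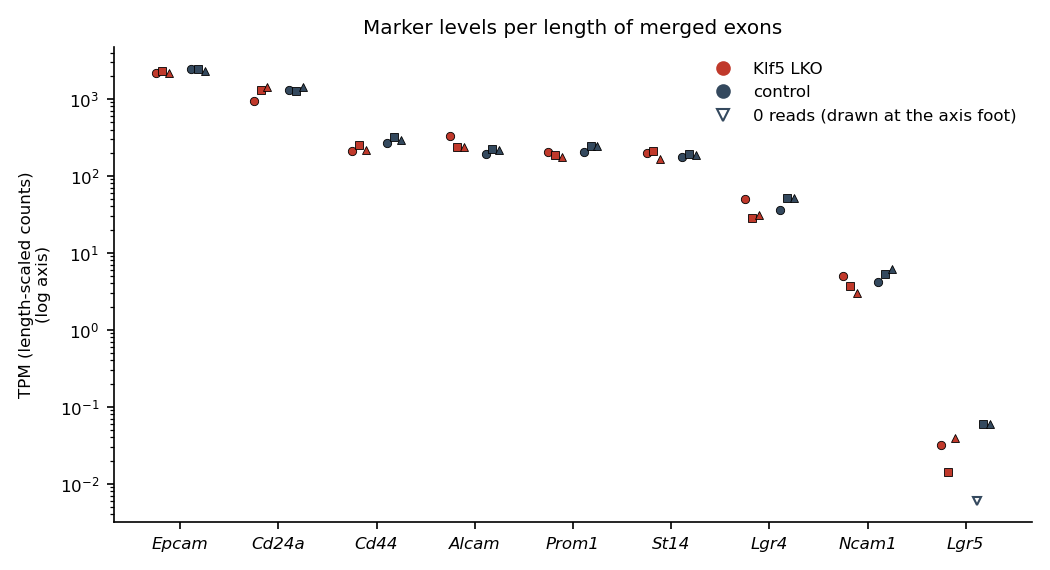
Levels in TPM, that is length-scaled counts on a log axis, of the 9 surface markers in each library, with Klf5 LKO in red on the left of each pair and control in blue on the right, and symbols for library 1 (circle), 2 (square) and 3 (triangle). Epcam and Cd24a lie highest, Cd44, Alcam, Prom1 and St14 overlap one another, and Lgr5 lies lowest, with 0 reads in control 1 drawn at the foot of the axis.

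The markers together took 0.394%, 0.417% and 0.413% of all reads in Klf5 LKO and 0.439%, 0.452% and 0.439% in control. Every Klf5 LKO share was below every control share, and no test was made of this sum.

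In mm10 coordinates, the genes span chr17:87635979-87651129 (Epcam), chr5:43993620-44102032 (Prom1), chr10:43578284-43584265 (Cd24a), chr2:102811141-102901665 (Cd44) and chr16:52248996-52454074 (Alcam). The others span chr9:49502136-49798925 (Ncam1), chr2:109917647-110014257 (Lgr4), chr10:115450311-115587780 (Lgr5) and chr9:31089402-31131853 (St14). Epcam, Cd24a and Lgr4 lie on the plus strand and the other 6 on the minus strand.

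The genes whose log2 counts ran most like those of each marker over the 6 libraries were listed by Pearson's r among 10734 genes with a mean of at least 100. The 6 libraries share their genotype within each group, and the values of r are descriptions. Bcat2 and Cr1l were the most like Epcam (r = 0.993 and 0.988), Ankrd49 and Ltbp1 the most like Prom1 (r = 0.997 and 0.988), and Nudt4 and Rnf20 the most like Cd24a (r = 0.997 and 0.995). For Cd44 they were Nek7 and Myh14 (r = 0.988 and 0.987), and for Alcam Necap2 and Fam149b (r = 0.994 and 0.989). Paqr6 and Grhl1 ran with Ncam1 (r = 0.984 and 0.983), Zdhhc15 and Stat2 with Lgr4 (r = 0.981 and 0.977), and Gamt and Nrip1 with St14 (r = 0.987 and 0.985). No marker had another of the 9 among its closest genes.

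Transcripts of other cell types were present at levels that differed between libraries. Kupffer cell genes Clec4f, Cd5l and Vsig4 and the stellate cell genes Des, Lrat and Col3a1 had 0 reads in all 6 libraries. Summed counts of endothelial markers were 122 to 256 in Klf5 LKO and 132 to 478 in control, and those of hepatocyte markers, led by Alb, 8360 to 12991 in Klf5 LKO and 9225 to 12270 in control. Mesothelial markers summed to 1825 to 2045 in Klf5 LKO and 2833 to 3027 in control. The difference lay in Msln, with means of 44.6 in Klf5 LKO and 1242 in control (adjusted p = 0.0328, not called by DESeq2). The highest mesothelial marker, Gpm6a, had means of 1878 in Klf5 LKO and 1686 in control (adjusted p = 0.716). Macrophage markers, led by Csf1r, summed to 868 to 1455 in Klf5 LKO and 1248 to 1547 in control, and the highest leukocyte marker was Lcp1, with means of 515 in Klf5 LKO and 727 in control. The other lists, led by Vwf, Pf4, Cxcr2, Cd79a and Col1a1, held no gene called by limma. The part of these cells in the marker values was not tested, other than that of leukocytes by the fit with their score.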

How the data were processed

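The 6 libraries, 3 of Klf5 LKO and 3 of control biliary epithelial cells, were made with a low-input cDNA kit and transposase tagmentation, per the labels' protocols. The submitters' processing notes name TopHat, Bowtie2 and DESeq2 and the build mm10. Not given in the sources used here are the read counter, its strand setting, the gene annotation and the cell isolation. Groups and replicate numbers came from the sample titles, and no library was left out of the main comparison.

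The authors deposited a signal per gene and library, which is the number of reads over 1 size factor of that library. Dividing by what 1 read is worth gave whole reads, within 0.001, for 100% of values. For the comparison, the authors' deposited table gives mean signal, log2 fold changes with standard errors, p-values before and after adjustment, and the Wald statistic, a score.

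Because the values are normalised, limma 3.58.1 (lmFit, eBayes with trend) in R 4.3.3 was run on log2(value + 1) for 13490 genes with a mean of at least 10, two-sided, at a threshold of 0.05 after Benjamini-Hochberg adjustment. No term for the replicate number was used. Changes of low genes are understated by the pseudocount. Count tests on the recovered reads (edgeR 4.0.16, DESeq2 1.42.0 and limma-voom), other scalings, filters and pseudocounts, a replicate block, a leukocyte score as covariate and each library left out were alternatives. Only the limma fit was tested on simulated counts, with set fold changes larger than those of the markers. A floor of 3 reads, the most a count of 0 allows, was 2.24 to 3.19 normalised counts in Klf5 LKO and 2.76 to 4.74 in control. Floors and intervals of reads cover counting error only, since reads amplified by PCR and carrying no molecular identifier do not each stand for a molecule.

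Lengths and positions come from GENCODE M21, which matched 23309 of 24404 symbols. TPM divide reads by gene length and then by the sum of these quotients in the library.

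The markers and lists were chosen with earlier results of these data known. Named genes are the 9 markers, Klf5, up to 4 called genes of each list by p or the 2 with the smallest p where none was called, the highest marker of each other cell type, and the 2 genes most like each marker. Other genes named, such as those at or near 0 reads, were chosen after their values were seen. A gene that the rule would name is not reported here but stays in the counts.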

Additional observations from a re-analysis of the deposited data

How the results depend on the processing

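Over 17 alternatives, none of the 8 tested markers was called in either direction, and the smallest adjusted p was 0.0525 (Cd44, DESeq2). Of 136 marker fold changes, 133 kept their direction and 3 reversed, each where 1 library was left out: Cd24a to 0.0227 without Klf5 LKO 1, and St14 to -0.0649 without Klf5 LKO 2 and to -0.0049 without control 3. As single libraries were left out, Cd24a ranged from -0.3098 to 0.0227 and St14 from -0.0649 to 0.1088. The count of all genes called was 88, against 345 with DESeq2, of which 120 were higher and 225 lower, and it ranged from 14 (without control 2) to 105 (without Klf5 LKO 1) as single libraries were left out. The cause of these moves was not tested. Called counts of markers were 0 to 0 over the same 6 fits.

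Libraries with the same replicate number deviated together with r of 0.185, -0.012 and 0.106, and the other combinations with r of -0.198 to 0.138. These values do not settle whether the libraries were paired, and the numbers were not taken as pairing. Klf5 LKO 2 correlated best with control 3 (r = 0.138). With a replicate block, 110 genes and 0 markers were called. Lgr5 had too few reads for any filter but none, where its log2 fold change was -0.07 (adjusted p = 0.981). The number of libraries limits the precision of the abundant markers, and depth that of Lgr5.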
